A study of Mus musculus with 18 samples.

Results

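The 10 genes described here handle iron and heme in the cell. They are the ferritin subunits Fth1 and Ftl1, the ferritin receptor Ncoa4, the transporters Tfrc, Slc11a2 and Slc40a1, the heme oxygenases Hmox1 and Hmox2, and the iron regulatory proteins Aco1 and Ireb2. They were taken by symbol from the 55536 genes of the count table. Each had reads in all 18 samples, passed the filter on low values in every comparison, and matched 1 identifier of the GENCODE M21 annotation of the mouse genome GRCm38.

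Cells take up transferrin-bound iron through the transferrin receptor and move it out of endosomes through a divalent metal transporter. Iron that is not used is stored inside ferritin shells, is released when NCOA4 carries ferritin to the lysosome, or leaves through ferroportin, the known cellular iron exporter. Heme oxygenases open the heme ring and free its iron. The iron regulatory proteins bind stem-loops, called iron responsive elements, in the untranslated regions of several of these mRNAs when iron is scarce: a site in the 5′ UTR holds back translation, and sites in the 3′ UTR of the transferrin receptor mRNA protect it from decay. Microglia, the resident macrophages of the brain, are known to hold ferritin and to clear iron-rich debris.

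The study asked what loss of TYROBP, an adaptor protein of microglial receptors, does in a mouse model of Huntington's disease. Microglia were enriched from the striatum of C57BL/6 mice (C57Bl6/J in the methods) with CD11b magnetic beads, and RNA was sequenced from 5 wild-type (WT), 3 Tyrobp-KO, 5 Q175 and 5 Q175;Tyrobp-KO samples (DM in the sample titles and below). Q175 mice were heterozygous for a huntingtin allele with an expanded CAG repeat, Tyrobp-KO mice lack Tyrobp in all cells from birth, and DM mice carry both changes. Each sample came from 2 striata by the labels and from 1 by the methods, and no treatment was applied in any group. Sexes were unequal, with 4 males of 5 in WT, 1 of 3 in Tyrobp-KO, 1 of 5 in Q175 and 3 of 5 in DM. CD11b is shared by microglia, other macrophages and granulocytes, and in such bulk samples fewer cells of a type and less RNA per cell cannot be told apart.

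Total counts ran from 11260410 to 29771983 per sample, with a median of 18342645. Levels are given as normalized CPM, each count taken relative to its library's total after scaling by the trimmed mean of M values (TMM). Tyrobp was at 351 ± 126 in WT and 283 ± 56.3 in Q175 (mean ± SD, n = 5 each), against 19.5 ± 1.92 in Tyrobp-KO (n = 3) and 13 ± 1.88 in DM (n = 5), as the labels state. All 15 microglial markers were detected in every group, at a level (geometric mean) of 515 to 1057. The libraries also held RNA of other brain cells. The astrocyte marker level ranged from 27.5 to 152 and was highest in Q175 replicate 14 (152) and Tyrobp-KO replicate 20 (131), which also had the highest neuron marker levels (54.7 and 50.1). The choroid plexus or ependymal level was at most 4.55 except in Q175 replicates 3 and 4, at 10.2 and 13.4. These libraries are named again beside the results they move with.

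The iron responsive elements that a search found are printed here. Among mRNAs that hold one, its place separates those with a level known to respond to the iron regulatory proteins from those regulated at translation. All protein-coding transcripts of GENCODE M21 were searched on the transcript strand for a bulged C, 5 paired bases, a CAGTGN loop whose last base is not G, and the 5 bases pairing back, with G-T pairs allowed. A match lay in a UTR of 4 of the 10 genes and of 0.553% of the 21877 protein-coding genes searched. With at least 4 of 5 pairs also in the lower stem, 13 genes remained (0.0594%), which included these 4. In the sequences below, written 5′ to 3′, capitals mark the bulged C and the loop.
Fth1, 5′ UTR, chr19:9982733-9982759, + strand: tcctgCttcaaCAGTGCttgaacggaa
Ftl1, 5′ UTR, chr7:45459780-45459806, - strand: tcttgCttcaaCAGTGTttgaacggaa
Slc40a1, 5′ UTR, chr1:45925466-45925492, - strand: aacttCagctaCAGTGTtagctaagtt
Tfrc, 3′ UTR, chr16:32631220-32631246, + strand: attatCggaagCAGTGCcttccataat
Tfrc, 3′ UTR, chr16:32631599-32631625, + strand: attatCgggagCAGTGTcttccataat
Tfrc, 3′ UTR, chr16:32631664-32631690, + strand: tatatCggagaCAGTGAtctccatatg
Tfrc, 3′ UTR, chr16:32631711-32631737, + strand: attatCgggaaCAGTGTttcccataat

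Both ferritin subunits and the exporter held a single match upstream of the coding sequence, and Tfrc held 4 downstream of it. No match of this form was found in Slc11a2, Ncoa4, Hmox1, Hmox2, Ireb2 or Aco1. An element with a mismatch or an extra bulge in the 5 pairs would be missed. The search thus cannot show that these genes hold no element. The antioxidant response element motif TGACNNNGC, searched on both strands of RefSeq promoter windows around the start site (GRCm38.p6), was in a window of Ncoa4 alone among the 7 of the 10 genes that matched the table, and in 12.4% of all 32851 windows. Such matches describe the letters and not a bound site.

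Ferritin was by far the most abundant of these mRNAs when levels were set against length. Per kilobase of the longest principal protein-coding transcript, Fth1 averaged 316 ± 176 CPM and Ftl1 228 ± 54.3 (mean ± SD, n = 18 samples). Slc40a1 followed at 56.7 ± 13.4, Hmox2 at 37.8 ± 5.74, Ireb2 at 24 ± 3.81 and Ncoa4 at 21.6 ± 3.64. The lowest were Slc11a2 at 12.9 ± 2.25, Aco1 at 8.81 ± 1.17, Tfrc at 7.32 ± 2.6 and Hmox1 at 7.12 ± 1.73.

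The steps from Ftl1 to Slc40a1, Slc40a1 to Hmox2, Hmox2 to Ireb2, Ncoa4 to Slc11a2 and Slc11a2 to Aco1 held in 18 of 18 samples. Neighbours that changed places were Fth1 and Ftl1 (Fth1 higher in 13 samples), Ireb2 and Ncoa4 (Ireb2 higher in 12), Aco1 and Tfrc (Aco1 higher in 13), and Tfrc and Hmox1 (Tfrc higher in 9). The order depended on the length used. Per kilobase of all annotated exons of a gene, retained introns included, Ftl1 (165) stood above Fth1 (136) in 15 of 18 samples and Hmox2 (29.5) above Slc40a1 (21.2) in all 18.

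**Figure D1:**
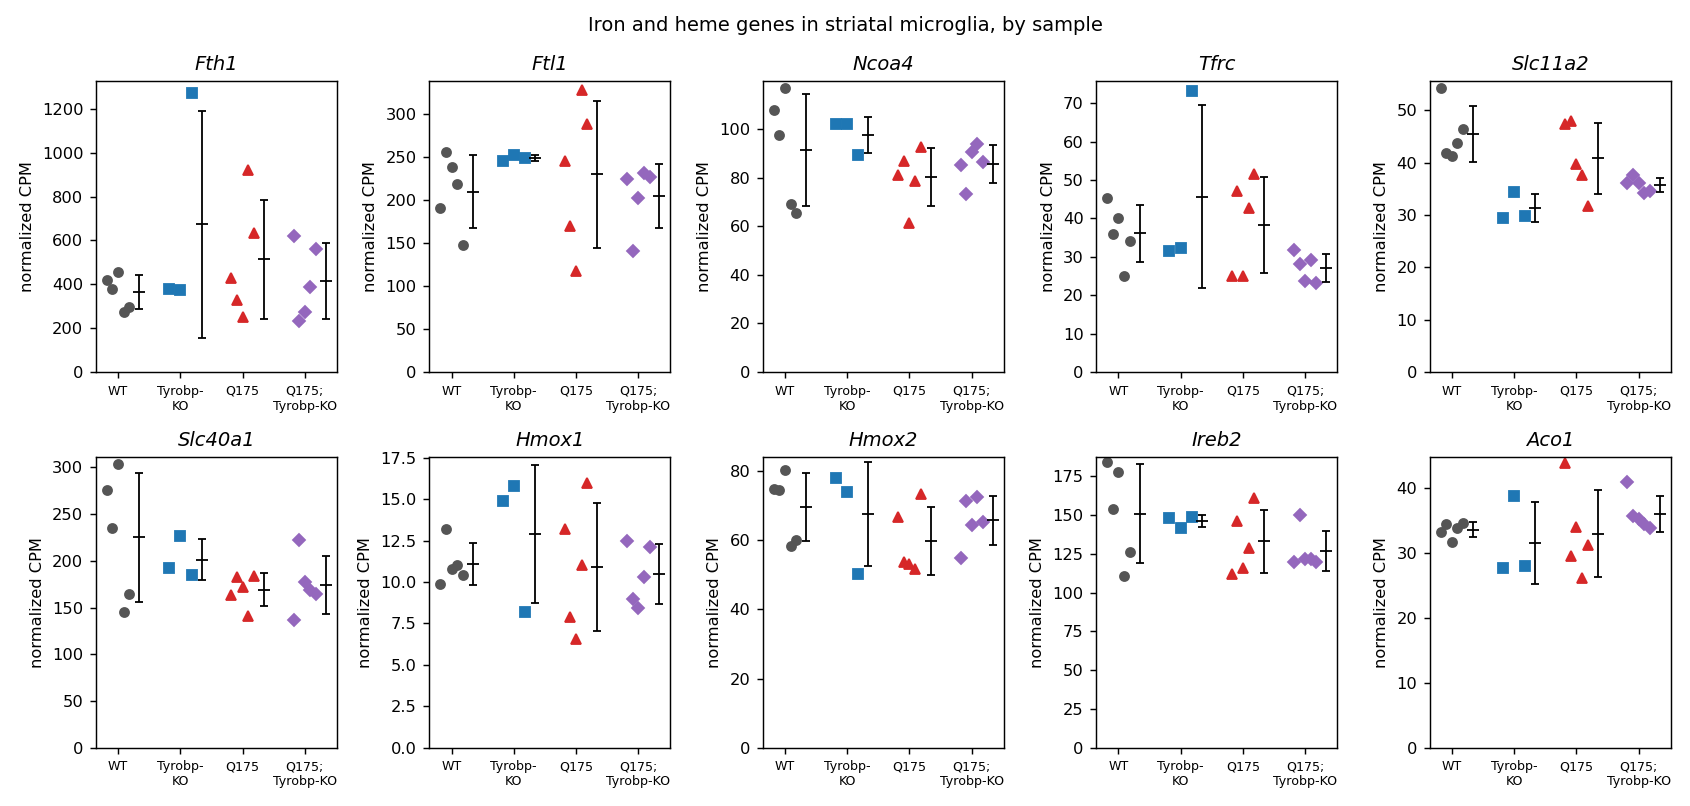
Normalized CPM (vertical axes, starting at 0) of the 10 genes in each sample, grouped by genotype, with the mean and SD of each group as a bar to the right of its points. Fth1 in Tyrobp-KO replicate 20 (1271) and Q175 replicate 14 (923) stands above all other samples, and Slc11a2 in Tyrobp-KO (29.5 to 34.4) lies below every WT sample (41.2 to 54.3).

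None of the 10 genes passed an FDR of 0.1 in any of the 5 comparisons, either by edgeR's quasi-likelihood test or by DESeq2. Few genes of any kind did by edgeR. The share of all tested genes called by edgeR was 0% of 18266 for Q175 against WT, 0.0111% of 18059 for DM against Q175, 0.0222% of 18017 for Tyrobp-KO against WT, 0% of 17723 for DM against Tyrobp-KO and 0% of 18613 for the interaction. By DESeq2 the shares were 1.28%, 0.227%, 0.932%, 3.84% and 0.0107%. At an unadjusted p under 0.05, the numbers of the 10 genes were 0, 1, 2, 1 and 1, against 6.24%, 8.01%, 6.82%, 13.2% and 6.01% of all genes tested. A count of 1 in 10 lies near these shares, and the 2 in Tyrobp-KO against WT include Fth1, whose difference rests on 1 library.

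**Figure D2:**
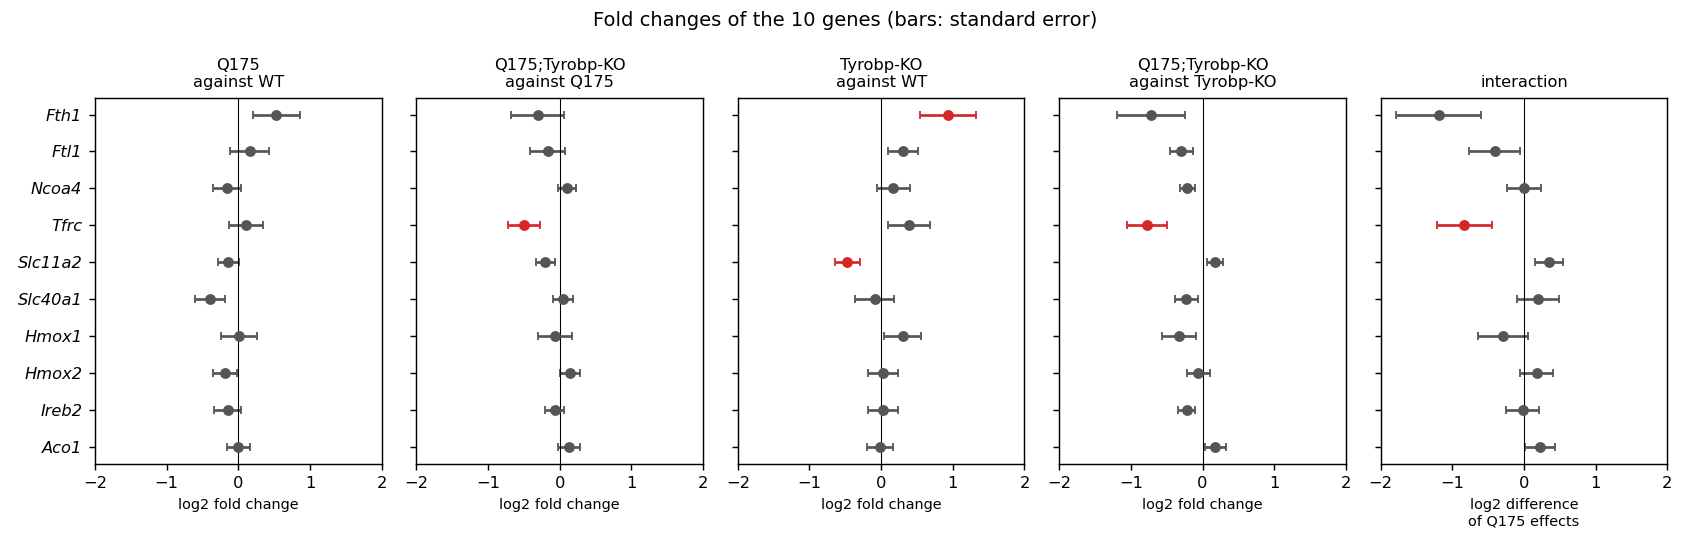
Log2 fold change (horizontal axes) of the 10 genes in the 4 pairwise comparisons and, at the right, the log2 difference of the Q175 effect without and with Tyrobp. Points are edgeR estimates, bars are standard errors, and red marks an unadjusted p under 0.05, which Tfrc reached in 3 panels and Fth1 and Slc11a2 in 1 each, none with an FDR under 0.1.

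Of the 10 genes, Fth1 varied most among samples of 1 genotype. It encodes the ferritin heavy subunit, which oxidizes iron for storage. In WT it was at 418, 379, 456, 274 and 298 CPM, and in Tyrobp-KO at 377, 373 and 1271. In Q175 it was at 429, 329, 252, 923 and 636, and in DM at 620, 234, 273, 388 and 562. All groups overlapped, and the highest libraries were Tyrobp-KO replicate 20 and Q175 replicate 14.

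Within genotypes the SD of log2 Fth1 was 0.667, against a median of 0.334 over the 178 genes of like level. The group means were 365 ± 77.6 in WT, 674 ± 517 in Tyrobp-KO, 514 ± 270 in Q175 and 415 ± 171 in DM. For Tyrobp-KO against WT the edgeR log2 fold change was 0.93 (SE 0.39, unadjusted p = 0.0362, adjusted p = 0.687), and it was 0.11 without Tyrobp-KO replicate 20. For Q175 against WT it was 0.53 (SE 0.33, adjusted p = 0.948), 0.20 without Q175 replicate 14, and -0.88 when a score of astrocyte, neuron and oligodendrocyte markers was a term of the fit. The astrocyte level, a part of that score, was 27.5 to 43.7 in WT and 55.7 to 152 in Q175, without overlap. The fit with the score thus cannot cleanly separate marker RNA from genotype.

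Fth1 moved with markers of several other cell types from library to library. After group means were subtracted, log2 Fth1 and the log2 astrocyte marker level had a Pearson r of 0.76 (permutation p = 0.00022, adjusted over 145 pairs p = 0.0159) and a Spearman rho of 0.72 (permutation p = 0.00115, adjusted p = 0.058) over 18 samples. Without Tyrobp-KO replicate 20 and Q175 replicate 14, r was 0.61. With the neuron markers r was 0.75 (permutation p = 0.00037, adjusted p = 0.0179) and rho 0.68 (permutation p = 0.00211, adjusted p = 0.058), and r was 0.56 without the same libraries. With the oligodendrocyte markers r was 0.53 (permutation p = 0.0233, adjusted p = 0.13) and rho 0.63 (permutation p = 0.00595, adjusted p = 0.0603), and r was 0.64 without them. With the endothelial markers r was 0.55 (permutation p = 0.0165, adjusted p = 0.104) and rho 0.63 (permutation p = 0.00598, adjusted p = 0.0603), and r was 0.46 without them. In Q175 against WT all 12 astrocyte markers were higher, with a median log2 fold change of 1.09, and 10 had an unadjusted p under 0.05. All 10 oligodendrocyte markers were higher (median 0.58, 3 with an unadjusted p under 0.05), and 9 of 10 neuron markers (median 0.34, 3). None of these markers passed the edgeR FDR. The part of these cells in the Fth1 level was not tested.

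**Figure D3:**
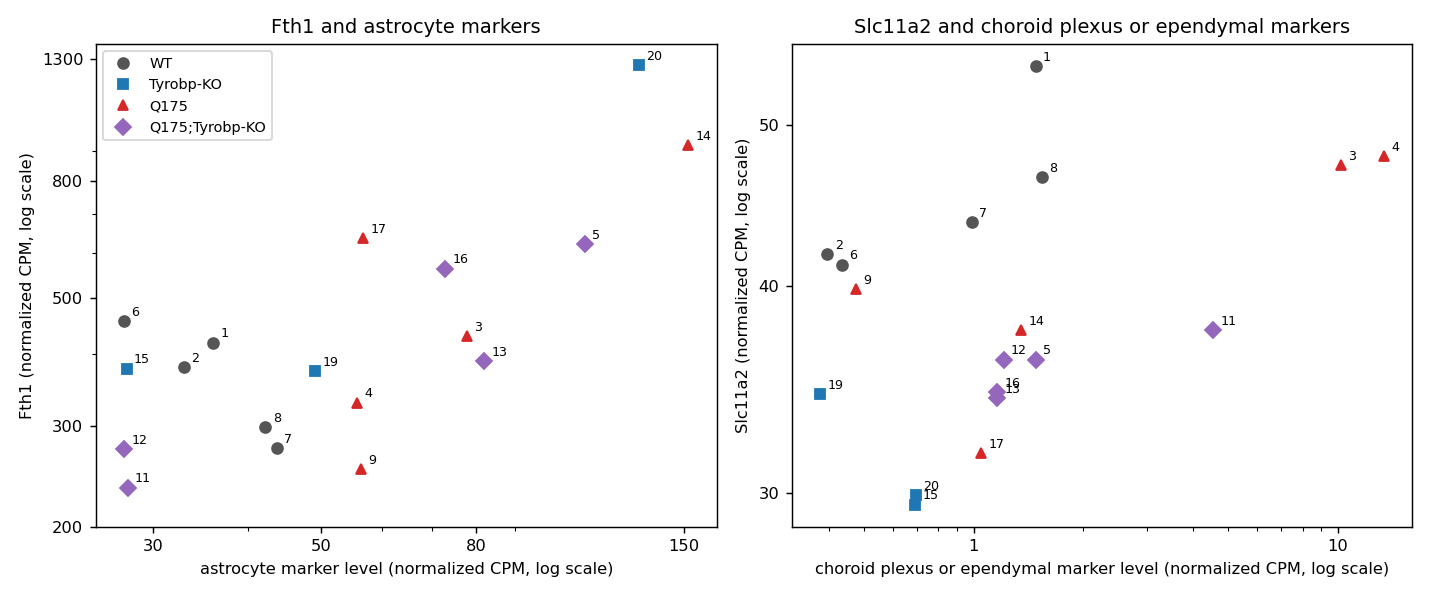
Left, Fth1 against the astrocyte marker level, and right, Slc11a2 against the choroid plexus or ependymal marker level, both in normalized CPM on log axes, with 1 point per sample labelled by its replicate number. Fth1 is highest in the libraries with the highest astrocyte marker levels (Q175 replicate 14 at 152, Tyrobp-KO replicate 20 at 131), and Q175 replicates 3 and 4 lie apart on the choroid plexus axis, at 10.2 and 13.4.

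Ftl1 encodes the light subunit, which helps the iron core to form. It was at 191, 256, 238, 219 and 148 CPM in WT and at 246, 253 and 249 in Tyrobp-KO. In Q175 it was at 245, 170, 118, 328 and 289, and in DM at 224, 141, 202, 231 and 227. The 3 Tyrobp-KO samples were nearly alike and all above the 5 DM samples, while every other pair of groups compared overlapped.

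For DM against Tyrobp-KO the log2 fold change of Ftl1 was -0.30 (SE 0.16, unadjusted p = 0.0913, edgeR adjusted p = 0.462). Among all genes tested in that comparison 9.97% had groups that did not overlap. There 0 of 8 monocyte or neutrophil markers were higher (median log2 fold change -1.43, 5 with an unadjusted p under 0.05, none called by edgeR). Within genotypes Ftl1 and these markers had r = 0.56 (permutation p = 0.0164, adjusted p = 0.104) and rho = 0.66 (permutation p = 0.00391, adjusted p = 0.058). Without Q175 replicate 9 and DM replicate 11, r was 0.62. The part of these cells in the Ftl1 values was not tested. Ftl1 lies 15 Mb from Tyrobp on chromosome 7. The ferritin pseudogenes Fth-ps2, Fth-ps3, Ftl1-ps1, Ftl1-ps2 and Ftl2-ps were at no more than 4.29 CPM in any sample, so that few reads were counted there, although how the counting treated reads shared between copies is not given in the sources used here.

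Fth1 and Ftl1 varied together, with r = 0.66 (permutation p = 0.00264, adjusted p = 0.0385) and rho = 0.63 (permutation p = 0.00656, adjusted p = 0.0603), and r = 0.69 without Tyrobp-KO replicate 20 and Q175 replicate 14. The ratio of Fth1 to Ftl1 counts within a sample, which does not depend on scaling between samples, had a mean log2 of 0.79 ± 0.34 in WT, 1.18 ± 1.02 in Tyrobp-KO, 1.10 ± 0.25 in Q175 and 0.94 ± 0.43 in DM. The ratio was above 1 in every sample, from 1.25 in WT replicate 7 to 5.11 in Tyrobp-KO replicate 20. Ncoa4, the receptor that delivers ferritin to lysosomes, stood at 91.4 ± 23 CPM in WT, 97.7 ± 7.38 in Tyrobp-KO, 80.2 ± 11.9 in Q175 and 85.8 ± 7.79 in DM. Its log2 fold changes lay between -0.21 and 0.17 in the pairwise comparisons, with groups that overlapped in all 4. Within genotypes Ncoa4 and the monocyte or neutrophil markers had r = 0.69 (permutation p = 0.00159, adjusted p = 0.0385) and rho = 0.60 (permutation p = 0.00993, adjusted p = 0.0681). With the erythroid markers r was 0.67 (permutation p = 0.00258, adjusted p = 0.0385) and rho 0.62 (permutation p = 0.00701, adjusted p = 0.0603). Without WT replicate 8 and Q175 replicate 9, r was 0.56 and 0.54. The erythroid level was at most 1.82, and the part of these cells was not tested.

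Of the uptake genes, Tfrc had the lowest levels in DM. Tfrc encodes the transferrin receptor and carries the 4 downstream elements printed above. It was at 31.7, 28.1, 23.7, 29.2 and 23.1 CPM in DM and at 24.9, 47.1, 25, 42.6 and 51.5 in Q175. In Tyrobp-KO it was at 31.5, 32.2 and 73.2, and in WT at 45.4, 35.9, 40.1, 25.1 and 34. The DM samples were evenly low, but 2 of the Q175 samples, WT replicate 7 and Tyrobp-KO replicate 15 lay among them, so no pair of groups was separate.

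For DM against Q175 the log2 fold change of Tfrc was -0.50 (SE 0.22, unadjusted p = 0.0418, edgeR adjusted p = 0.533), and it ran from -0.62 to -0.36 when each replicate was left out. For DM against Tyrobp-KO it was -0.77 (SE 0.28, unadjusted p = 0.0219, adjusted p = 0.315 by edgeR), and -0.25 without Tyrobp-KO replicate 20. These comparisons share the DM samples. The interaction, the Q175 effect without Tyrobp minus that with it, was -0.83 (SE 0.38, unadjusted p = 0.0438, edgeR adjusted p = 0.716) and -0.36 without Tyrobp-KO replicate 20. For Fth1 the interaction was -1.19 (SE 0.59, unadjusted p = 0.0569, edgeR adjusted p = 0.716). Tyrobp-KO replicate 20 was thus the highest library for Fth1 and Tfrc alike, and it had the highest endothelial marker level (10.4). The endothelial markers had a median log2 fold change of -0.72 in DM against Q175, with 2 of 10 higher and 4 at an unadjusted p under 0.05, and of -1.29 in DM against Tyrobp-KO, with 0 of 10 higher and 6 at an unadjusted p under 0.05, none called by edgeR. Within genotypes Tfrc and the endothelial marker level had r = 0.54 (permutation p = 0.02, adjusted p = 0.116) and rho = 0.60 (permutation p = 0.00966, adjusted p = 0.0681), and r = 0.39 without Tyrobp-KO replicate 20 and Q175 replicate 3. With the microglial markers r was -0.57 (permutation p = 0.013, adjusted p = 0.104) and rho -0.59 (permutation p = 0.0125, adjusted p = 0.0789). Without the same libraries r was -0.43. Of the 15 microglial markers, 11 were higher in DM against Q175 (median log2 fold change 0.25) and 4 in DM against Tyrobp-KO (-0.18). The part of endothelial RNA or of microglial content in the Tfrc values was not tested.

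Slc11a2, the divalent metal transporter, was lower in Tyrobp-KO than in WT without overlap, although short of the FDR. It was at 54.3, 41.8, 41.2, 43.7 and 46.5 CPM in WT and at 29.5, 34.4 and 29.9 in Tyrobp-KO. In Q175 it was at 47.3, 47.9, 39.8, 37.6 and 31.7, and in DM at 36.1, 37.6, 36.1, 34.2 and 34.5. Every Tyrobp-KO sample was below every WT sample, whereas Q175 overlapped both WT and DM.

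For Tyrobp-KO against WT the log2 fold change of Slc11a2 was -0.47 (SE 0.18, unadjusted p = 0.0221, edgeR adjusted p = 0.61, and 0.265 by DESeq2), and leaving out each replicate gave -0.56 to -0.40. Among all genes tested there, 4.48% had groups that did not overlap. For DM against Q175 it was -0.20 (SE 0.13, edgeR adjusted p = 0.547), with overlap, where 0.858% of all genes had none. The within-genotype SD of log2 Slc11a2, 0.168, was the smallest of the 10 genes, against a median of 0.28 for 2723 genes of like level.

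Slc11a2 was also the gene that moved with the choroid plexus or ependymal markers, with r = 0.72 (permutation p = 0.00079, adjusted p = 0.0286) and rho = 0.71 (permutation p = 0.00142, adjusted p = 0.058), and r = 0.75 without Q175 replicate 17 and WT replicate 1. Those libraries were the farthest from the median of Slc11a2. The libraries highest in the markers, Q175 replicates 3 and 4, stayed in, and r without them was not computed. That marker level was 0.588 ± 0.18 in Tyrobp-KO, where 2 of the 8 markers had no reads, and 0.969 ± 0.55 in WT. It was higher than in WT in Q175 (5.29 ± 6.06) and DM (1.91 ± 1.48). Mean Slc11a2 was lower there, at 40.8 and 35.7 CPM against 45.5 in WT. The part of such RNA in the Slc11a2 values was not tested. A gene on the opposite strand, Gm5475, shares 402 exonic bases with Slc11a2 and was at no more than 0.2 CPM.

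Slc40a1, ferroportin, was at 276, 235, 303, 145 and 164 CPM in WT and at 192, 226 and 185 in Tyrobp-KO. It was at 163, 183, 172, 141 and 184 in Q175 and at 137, 222, 177, 169 and 164 in DM. The spread was widest in WT, where replicates 1, 2 and 6 were above every Q175 sample and replicates 7 and 8 were among them.

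For Q175 against WT its log2 fold change was -0.39 (SE 0.21, unadjusted p = 0.0924, edgeR adjusted p = 0.92), the smallest p of the 10 genes there, and it was -0.12 with sex as a term. In that comparison 1.08% of all genes had groups that did not overlap, and none of the 10 genes did. Within genotypes Slc40a1 and the astrocyte markers had r = -0.55 (permutation p = 0.0187, adjusted p = 0.113) and rho = -0.62 (permutation p = 0.00707, adjusted p = 0.0603). Without WT replicates 6 and 7, r was -0.60. The part of cell makeup in the Slc40a1 level was not tested. The log2 ratio of Tfrc to Slc40a1 within samples was -2.61 ± 0.24 in WT, -2.25 ± 0.80 in Tyrobp-KO, -2.20 ± 0.51 in Q175 and -2.67 ± 0.35 in DM, with overlapping ranges, and the exporter had more reads than the receptor in every sample.

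Of the heme oxygenases, the constitutive Hmox2 exceeded the stress-inducible Hmox1 in every sample. Hmox1 was at 11.1 ± 1.26 CPM in WT, 12.9 ± 4.14 in Tyrobp-KO, 10.9 ± 3.86 in Q175 and 10.5 ± 1.8 in DM, with a lowest value of 6.56 and a highest of 16 among the 18 samples. Hmox2 was at 69.6 ± 9.79, 67.5 ± 15, 59.7 ± 9.77 and 65.7 ± 6.99 CPM in the same order. For Q175 against WT the log2 fold change was 0.01 for Hmox1 and -0.19 for Hmox2 (SE 0.17, unadjusted p = 0.277, edgeR adjusted p = 0.999).

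The log2 ratio of Hmox1 to Hmox2 averaged between -2.66 and -2.41 in the 4 groups. Hmox2 shares 892 exonic bases with Cdip1 on the opposite strand, which was at 48.7 to 92.5 CPM. The libraries were not directional, so that reads in the shared stretch cannot be assigned to 1 of them. The Hmox2 level is uncertain to that extent. Within genotypes Hmox2 and the astrocyte markers had r = -0.60 (permutation p = 0.00938, adjusted p = 0.0907) and rho = -0.55 (permutation p = 0.0203, adjusted p = 0.123). Without Tyrobp-KO replicate 20 and DM replicate 5, r was -0.38. With the microglial markers Hmox2 had r = 0.58 (permutation p = 0.0117, adjusted p = 0.104) and rho = 0.60 (permutation p = 0.0103, adjusted p = 0.0681), and r was 0.40 without the same libraries. Hmox1 and the microglial markers had r = 0.52 (permutation p = 0.0263, adjusted p = 0.141) and rho = 0.60 (permutation p = 0.00972, adjusted p = 0.0681). The part of cell makeup in the Hmox2 and Hmox1 levels was not tested. Ftl1 and Hmox1 varied together within genotypes, with r = 0.67 (permutation p = 0.00214, adjusted p = 0.0385) and rho = 0.67 (permutation p = 0.00273, adjusted p = 0.058), and r = 0.52 without Q175 replicate 9 and DM replicate 11.

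The mRNAs of the iron regulatory proteins were among the steadiest. Ireb2, which is degraded when iron is plentiful, was at 151 ± 32 CPM in WT, 146 ± 3.8 in Tyrobp-KO, 133 ± 20.5 in Q175 and 127 ± 12.9 in DM. Aco1, which is an aconitase when it holds an iron-sulfur cluster and binds RNA when it does not, was at 33.6 ± 1.2, 31.5 ± 6.3, 33 ± 6.75 and 36 ± 2.81. The SD of log2 values within genotypes was 0.22 for Ireb2 and 0.193 for Aco1, against medians of 0.29 and 0.281 for genes of like level.

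The smallest p for either gene in a pairwise comparison was that of Ireb2 in DM against Tyrobp-KO, with a log2 fold change of -0.22 (SE 0.12, unadjusted p = 0.0832, edgeR adjusted p = 0.448). The log2 ratio of Ireb2 to Aco1 was 2.14 ± 0.35 in WT, 2.23 ± 0.31 in Tyrobp-KO, 2.02 ± 0.44 in Q175 and 1.81 ± 0.18 in DM, with overlap between all groups.

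Within genotypes, 9 of the 45 pairs among the 10 genes had an adjusted p under 0.1 for r. Of these pairs, 5 joined Slc40a1, Ncoa4, Hmox2 and Ireb2 to each other, and none was negative. In WT each of these genes was higher in replicates 1, 2 and 6 than in replicates 7 and 8. Ireb2 was at 184, 154 and 178 CPM against 111 and 126, and Ncoa4 at 108, 97.6 and 117 against 69.1 and 65.5. Hmox2 was at 74.8, 74.4 and 80.3 against 58.2 and 60.2. Tyrobp was split likewise, at 452, 394 and 475 against 239 and 196. The libraries left out below keep part of this split, and its part in r was not tested. Slc40a1 and Ireb2 had the highest r, 0.82 (permutation p = 5e-05, adjusted p = 0.00725), with rho = 0.75 (permutation p = 0.00058, adjusted p = 0.058) and r = 0.70 without WT replicates 6 and 7. Ncoa4 and Ireb2 had r = 0.69 (permutation p = 0.00162, adjusted p = 0.0385), rho = 0.67 (permutation p = 0.00296, adjusted p = 0.058) and r = 0.63 without WT replicate 8 and Q175 replicate 9.

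Fth1 and Tfrc had r = 0.67 (permutation p = 0.00277, adjusted p = 0.0385), rho = 0.61 (permutation p = 0.00823, adjusted p = 0.0663) and r = 0.53 without Tyrobp-KO replicate 20 and Q175 replicate 14. Fth1 and Slc40a1, which carry the same kind of upstream element, had r = -0.16 (permutation p = 0.533, adjusted p = 0.777) and rho = -0.28 (permutation p = 0.263, adjusted p = 0.598), with r = -0.00 without the same libraries. All points share libraries, depth and cell makeup, so these values describe the samples only.

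**Figure D4:**
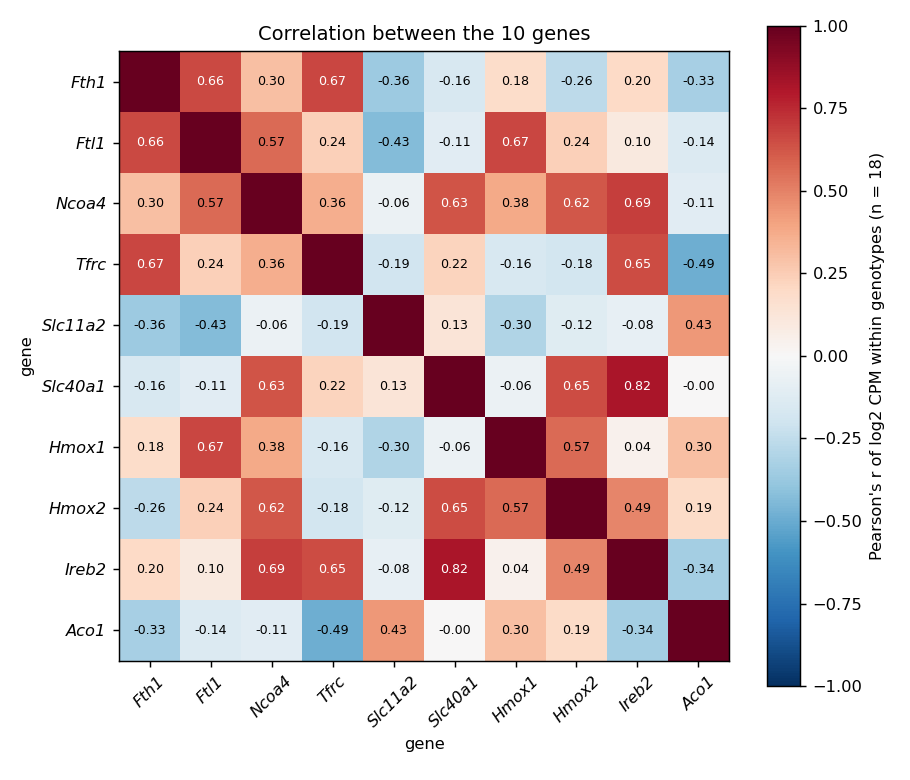
Pearson's r between the log2 normalized CPM of each pair of the 10 genes over 18 samples after group means were subtracted, from -1 (blue) to 1 (red). Slc40a1 with Ireb2 has the highest value (0.82), and Fth1 is positive with Ftl1 (0.66) and Tfrc (0.67) and near 0 with Slc40a1 (-0.16).

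The other genes of iron and heme handling were read from a list of 71, of which 61 to 64 were tested in each comparison. None passed an FDR of 0.1 by edgeR in any comparison. In the order of the comparisons above, 7 of 64, 7 of 64, 4 of 62, 5 of 61 and 2 of 64 had an unadjusted p under 0.05. The shares of all tested genes were 6.24%, 8.01%, 6.82%, 13.2% and 6.01%. The median log2 fold change of the list was -0.01 in Q175 against WT, where that of all genes was -0.02, and -0.02 against -0.05 in DM against Q175. In Tyrobp-KO against WT it was 0.07 against 0.02, in DM against Tyrobp-KO -0.08 against -0.01, and in the interaction -0.01 against 0.04. The medians of the 10 genes were -0.07, -0.07, 0.10, -0.23 and -0.01 in the same order.

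In Q175 against WT the list's smallest p were those of Heph and Steap2. Heph, a copper oxidase that works with ferroportin, was at 4.99 ± 3.82 CPM in Q175 and 1.06 ± 0.56 in WT (log2 fold change 2.24, SE 0.51, edgeR adjusted p = 0.345, DESeq2 adjusted p = 0.0122). Steap2, a metalloreductase, was at 4.99 ± 5.09 and 0.75 ± 0.322 (2.71, SE 0.67, edgeR adjusted p = 0.345, DESeq2 adjusted p = 0.0127). DESeq2 called no other gene of the list in any comparison. By edgeR the Heph value was 0.20 with the non-microglial marker score as a term and 1.75 with sex as a term. The Steap2 value was 3.28 with the score and 1.41 with sex. As for Fth1 above, the fit with the score cannot cleanly separate it from genotype.

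The highest Heph values were in the libraries with the most astrocyte marker RNA, Q175 replicate 14 (11.6 CPM), DM replicate 5 (9.27) and Tyrobp-KO replicate 20 (7.18), and the highest Steap2 values were in the libraries with the most choroid plexus marker RNA, Q175 replicates 4 (13.3) and 3 (6.22). Slc7a11, the cystine carrier, was at 27.8 ± 11.9 CPM in Q175 and 15.3 ± 2.25 in WT (log2 fold change 0.89, SE 0.26, edgeR adjusted p = 0.38). Srxn1, which repairs peroxiredoxins, was at 9.02 ± 4.07 and 5.32 ± 1.54 (0.78, SE 0.32, edgeR adjusted p = 0.685). Both had their highest values in Q175 replicate 14 and Tyrobp-KO replicate 20. With the marker score as a term the log2 fold changes were -0.15 and -0.42, with the same limit of that fit. Scara5, a ferritin receptor, was at 0.71 ± 1.16 CPM in Q175 and 0.0242 ± 0.0335 in WT, and Q175 replicate 4 alone had 2.76. In DM it was at 0.0706 ± 0.0495. Scara5 passed the filter on low values through that library alone, so no fold change is given.

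Cd163 had its lowest mean in DM. Cd163, the receptor for hemoglobin bound to haptoglobin and a marker of border macrophages, was at 0.314 ± 0.235 CPM in DM, 1.28 ± 0.994 in Q175, 1.16 ± 0.315 in Tyrobp-KO and 0.552 ± 0.422 in WT. No DM sample reached 1 CPM (highest 0.656). In DM against Q175 and DM against Tyrobp-KO, Cd163 thus passed the filter on low values only through the group where it was higher. No fold change is given for these comparisons or for the interaction, which holds the same samples. The border macrophage marker level, of which Cd163 is a member, was 2.88 ± 0.621 in DM, 3.85 ± 1.33 in Q175 and 4.19 ± 0.147 in Tyrobp-KO, and its part in the Cd163 values was not tested.

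Haptoglobin itself, Hp, stood at 0.894 ± 0.732 CPM in WT, 3.09 ± 1.35 in Tyrobp-KO, 0.512 ± 0.401 in Q175 and 1.81 ± 1.24 in DM. Its log2 fold change was 1.88 in Tyrobp-KO against WT (SE 0.69, edgeR adjusted p = 0.61). In DM against Q175 it passed the filter only through DM, since no Q175 sample reached 1 CPM (highest 0.957). No fold change is given there. The monocyte or neutrophil marker level was 8.19 ± 3.08 in Tyrobp-KO, 4.97 ± 5.23 in WT, 2.81 ± 1.51 in Q175 and 3.46 ± 2.22 in DM. Slc46a1, the folate carrier that also takes up heme, was at 44.8 ± 4.62 CPM in Tyrobp-KO, 36 ± 1.64 in WT and 34.6 ± 3.84 in DM. It had a log2 fold change of 0.39 in Tyrobp-KO against WT (SE 0.16, edgeR adjusted p = 0.693) and of -0.40 in DM against Tyrobp-KO (SE 0.12, edgeR adjusted p = 0.291). These comparisons share the Tyrobp-KO samples.

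None of the remaining genes named by the rule passed the FDR. In DM against Q175, Bmp6, a ligand that induces hepcidin, had a log2 fold change of -1.06 and Slc25a37, the mitochondrial iron importer mitoferrin, of 0.40. The highest Bmp6 values were in Q175 replicates 4 (17.2 CPM) and 3 (12.6), the libraries with the most choroid plexus marker RNA. In Tyrobp-KO against WT, Heph had 1.68, and Gpx4, the lipid peroxidase that guards against ferroptosis, had 0.59. Without Tyrobp-KO replicate 20 these were 0.51 and 0.21. The interaction of Steap2 was -2.27 (SE 0.97, edgeR adjusted p = 0.716), with its highest values in Q175 replicates 4 and 3 as given above. In DM against Tyrobp-KO, Ciao2b and Hspa9 of iron-sulfur cluster assembly had -0.41 and -0.34, and Fbxl5, the iron sensor that marks IREB2 for degradation, -0.33. The hepcidin gene Hamp was at no more than 0.652 CPM and mitochondrial ferritin, Ftmt, had no reads in any sample.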

How the data were processed

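The authors made SMART-Seq v4 libraries without strand information, mapped the reads to GRCm38 (STAR) and summed them by gene (featureCounts). The labels' processing notes name GRCh38, also with STAR, featureCounts and DESeq2, but all 55536 identifiers are those of mouse GENCODE M21. The deposited values are raw counts, and 2 columns with no sample in the labels were not used.

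Counts were scaled with TMM and tested with edgeR 4.0.16 (quasi-likelihood, R 4.3.3) over genes that reached 1 CPM in any sample of the fit, with Benjamini-Hochberg adjustment at an FDR of 0.1. Each pairwise fit used the samples of its groups, and the interaction used all 18. DESeq2 1.42.0, its size factors, no filter, sex or a non-microglial marker score as a covariate, 1 fit over all groups and leaving out each replicate were alternatives. Marker levels are geometric means of CPM plus 1, minus 1. Correlations used 100000 permutations, adjusted over 145 pairs. Values were permuted over all samples after group means were subtracted, as if exchangeable. Spreads differed between groups and the subtraction was not allowed for, so these p-values can be too small. An r given without named libraries left out those farthest from the median of the gene, or of the first gene of a pair. Libraries far out in the marker level could stay in. Lengths, transcripts and UTRs are from GENCODE M21, promoters from RefSeq. The fits were tested on simulated counts.

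Named were all 10 genes with their levels, fold changes of those with an unadjusted p under 0.05 or otherwise the 3 smallest p, and of the other iron genes at most 5 per comparison with an unadjusted p under 0.05. Other values of the 10 genes, such as those of Ftl1 and Ireb2 in DM against Tyrobp-KO, and Hamp and Ftmt, were picked after they were seen. The genes, lists and tests were chosen with earlier results of these data known. Nothing in the labels ties samples to litters, and p-values measure the spread between these samples only.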

Additional observations from a re-analysis of the deposited data

Results flagged for a closer look

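Of 42 groups of 5 samples examined for a single outlying value, 2 held one, and chance alone gives about 1 in 20. Ireb2 was at 150 CPM in Q175;Tyrobp-KO replicate 11, where the other 4 samples were at 120 to 122. Aco1 was at 40.9 CPM in Q175;Tyrobp-KO replicate 5, where the others were at 33.8 to 35.7. The gap to the nearest sample was 0.91 of the group's range for Ireb2 and 0.734 for Aco1.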

How the results depend on the processing

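No member of the 10 genes passed an FDR of 0.1 under any alternative. With DESeq2, 2 genes of the iron pathway list passed in Q175 against WT, against 0 by edgeR. With the non-microglial marker score as a term, the Q175 against WT log2 fold change turned to -0.88 for Fth1 (0.53 without it), -0.15 for Slc7a11 and -0.42 for Srxn1, and the cause was not tested. Every Q175 library exceeded every WT library in astrocyte marker level, a part of that score, so this fit cannot cleanly separate the score from genotype. Numbers of the 10 genes with an unadjusted p under 0.05 went from 0 to 3 over the comparisons and alternatives. For the list of 71 they went from 1 to 11 in Q175 against WT and in Q175;Tyrobp-KO against Q175 (7 in each), 0 to 5 in Tyrobp-KO against WT (4), 2 to 10 in Q175;Tyrobp-KO against Tyrobp-KO (5) and 1 to 9 in the interaction (2). Of all genes tested, 6.24%, 8.01%, 6.82%, 13.2% and 6.01% had an unadjusted p under 0.05 in the main fits of these comparisons. Over all genes, edgeR called 0, 2, 4, 0 and 0 and DESeq2 234, 41, 168, 680 and 2. With DESeq2's size factors 16 of 145 correlations had an adjusted p under 0.1, against 15. Added after seeing the data, the Tfrc interaction without Tyrobp-KO replicate 20 and Q175 replicate 14 was -0.35. No paired analysis was possible because the groups share no replicate number. With 3 Tyrobp-KO samples, 1 library decided the Fth1 value in Tyrobp-KO against WT. That library also decided the Tfrc values in Q175;Tyrobp-KO against Tyrobp-KO and in the interaction. It had no part in the Tfrc value of Q175;Tyrobp-KO against Q175. Hmox1, with 80 to 377 reads per sample, had the least depth of the 10 genes.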
